A study of Mus musculus with 24 samples.

Results

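The nutrient-sensing stress genes are 10 genes chosen by name: Sesn1, Sesn2, Sesn3, Ddit4, Flcn, Nprl2, Depdc5, Rragc, Eif2ak4 and Tfeb. Each has 1 row among the 16572 gene names of the RNA-seq table, and all 10 passed the filter on low values, a mean of at least 1 RPM, that left 14704 genes (called tested below). Between cultured oocytes grown in 5% O2 and in 20% O2 these genes did not move as a block. Tfeb and Flcn were over 2-fold higher in 5% O2, Ddit4 and Eif2ak4 were somewhat under 2-fold higher, Sesn3 was over 2-fold lower and Sesn2 was lower by a smaller amount. Sesn1 was nearly equal in both columns as deposited.

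Cells judge whether amino acids and energy suffice for growth largely at the lysosome, where the kinase complex mTORC1 is recruited and switched on by heterodimers of the Rag GTPases. GATOR1, which contains Nprl2 and Depdc5, turns the Rag GTPases off, GATOR2 holds GATOR1 in check, and the sestrins bind GATOR2 so that mTORC1 falls silent when leucine is scarce. Ddit4 restrains the same kinase through the TSC complex, folliculin acts on the Rag partner encoded by Rragc, Eif2ak4 encodes the kinase GCN2 that slows translation when uncharged tRNA builds up, and Tfeb encodes a transcription factor of lysosomal genes that mTORC1 keeps in the cytoplasm. In growing oocytes, mTORC1 has been linked to the large increase in protein and volume that precedes the resumption of meiosis, which was not examined here.

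The oocytes came from ovaries of 7-day-old mice labelled C57BL/6 Barb (the study's text spells it Babr, and its methods describe a C57 Black6 cross with SV129), which were dissociated and grown without follicles on a gelatine-coated plate. IV 5% O2 denotes class IV oocytes, the largest size class, after 9 days in 5% oxygen, and IV 20% O2 denotes class IV oocytes after 14 days in 20% oxygen. The labels give a diameter of 60 to 70 μm for both, while the study's methods give a somewhat smaller range for 20% O2. Medium was renewed every day in 5% O2 and every other day in 20% O2. The study's text also reports a larger share of oocytes with condensed, transcriptionally silent chromatin in 5% O2 than in 20% O2. It adds that oocytes in 5% O2 began to degenerate past the 9 days. Oxygen, culture time, feeding, size and chromatin state therefore cannot be told apart in any difference below. The labels name no genetic change in either group, and each strand-specific library of total RNA was made from a pool of oocytes. The study's text describes few granulosa cells on the immature oocytes after digestion of the ovaries, while free theca cells grew as colonies on the dish. For the 2 RNA-seq libraries per condition, the table holds 1 column, which was taken as pooled because its name gives no single library. The values of single libraries were not analysed here. The differences below therefore come without a spread between replicates and without a test.

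Values are RPM, reads per 1000000 reads of the column, without a correction for gene length. Whole reads could be recovered, and they imply that IV 5% O2 rests on 132200000 reads and IV 20% O2 on 40880000. The limit that a count of 0 leaves, 3 reads, was 0.0227 RPM at 5% O2 and 0.0734 RPM at 20% O2, and every member lay far above this. Differences are IV 5% O2 minus IV 20% O2 on log2(RPM + 1), which understates low genes. Intervals are exact 95% intervals of the log2 ratio without a pseudocount and describe the counting of reads alone, since no molecular identifiers were used. Across all genes tested the median log2 difference was 0.26, and values relative to this median gene are given where they matter. The identity of the cells was checked against 10 oocyte markers, all of which were present. They summed to 7454 RPM at 5% O2 and 11390 RPM at 20% O2, with a median log2 difference of -0.43 and with 0 at least 2-fold higher and 3 at least 2-fold lower in IV 5% O2. The 3 with the highest mean were Zp2 with 1537 RPM at 5% O2 against 3807 RPM at 20% O2, Gdf9 with 2346 and 2805 RPM and Bmp15 with 1209 and 1224 RPM.

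The sestrins, stress-inducible proteins that report on leucine and oxidative stress, differed by unequal amounts: Sesn2 and Sesn3 were lower in IV 5% O2 under each scaling, and Sesn1 did not differ beyond counting error as deposited but was at -0.27 with median-ratio scaling. Sesn3, on chromosome 9 of GRCm38 from 14275067 to 14333101 on the plus strand, had 23.4 RPM at 5% O2 (3097 reads) against 56.7 RPM at 20% O2 (2316 reads). This is 2.42-fold lower in IV 5% O2, with a log2 difference of -1.24 (interval of the ratio -1.35 to -1.20). Relative to the median gene it was -1.50, and it stood at percentile 6.53 of the differences of all genes tested, the lowest place among the members. After division by exonic length it was -0.89, just under 2-fold. Sesn2, the sestrin best known as a leucine sensor, lies on chromosome 4 from 132492032 to 132510501 on the minus strand. It had 48.6 RPM at 5% O2 (6418 reads) against 71.7 RPM at 20% O2 (2932 reads), a log2 difference of -0.55 (interval -0.63 to -0.50), which is 1.48-fold lower in IV 5% O2. Its place was percentile 17.6.

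Sesn1, which is known as a target of p53, lies on chromosome 10 from 41809935 to 41908424 on the plus strand. It had 6.46 RPM at 5% O2 (854 reads) against 6.58 RPM at 20% O2 (269 reads). The log2 difference was -0.02, and as deposited the interval of -0.23 to 0.18 holds 0, the only such case among the 10 genes on that scale. Relative to the median gene Sesn1 was at -0.28, on the same side as Sesn2 and Sesn3. Per kilobase of exon, the summed sestrin level was 17.1 RPM per kb in IV 5% O2 and 26.01 RPM per kb in IV 20% O2. Sesn2 made up 81.6% of this sum in IV 5% O2 and 79.4% in IV 20% O2, so that it was the main sestrin transcript of both cultures. The share of Sesn3 was 8.96% against 14.3%, and that of Sesn1 was 9.47% against 6.36%. Sesn2 thus stood 9.11-fold above Sesn3 per kilobase in IV 5% O2 and 5.56-fold above it in IV 20% O2. With the length of the longest coding transcript these ratios were 5.44 and 3.32, and the share of Sesn3 was 14.1% and 21.7%, with Sesn2 still the main part at 76.6% and 72.2%.

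Ddit4, a short gene also known as Redd1 that is classically induced by low oxygen and by stress and that curbs mTORC1 through the TSC complex, was higher in IV 5% O2. It had 169 RPM at 5% O2 (22283 reads) against 89.1 RPM at 20% O2 (3643 reads), and it lies on chromosome 10 from 59949669 to 59951834 on the minus strand. The log2 difference of 0.91 (interval 0.87 to 0.97), or 1.89-fold, left it just under 2-fold, at percentile 78.5 of all genes tested. Relative to the median gene the difference was 0.65. Among these 10 genes Ddit4 and Sesn2 are both known as stress-induced brakes of mTORC1, and per kilobase Ddit4 stood 6.88-fold above Sesn2 in IV 5% O2 but 2.46-fold above it in IV 20% O2.

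Because Ddit4 is the member best known for a response to hypoxia, the bases upstream of its start are shown in the direction of transcription. They are those of RefSeq on GRCm38.p6, chr10:59951835-59952020 on the minus strand, and capitals mark the letters ACGTG and GCGTG, the core of hypoxia response elements.
Ddit4: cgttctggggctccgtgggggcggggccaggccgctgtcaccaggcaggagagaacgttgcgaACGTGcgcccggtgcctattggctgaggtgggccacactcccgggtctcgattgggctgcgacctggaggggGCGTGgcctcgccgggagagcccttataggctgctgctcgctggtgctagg
ACGTG begins 187 bases and GCGTG 115 bases before the RefSeq start, which lies 64 bases inside the gene as the table has it, and those 64 bases are left out above. On either strand, ACGTG occurs in 20.7% and GCGTG in 41.5% of the 15112 windows of 250 bases before a RefSeq start of the table's genes, where a gene can have several. Of the members only Ddit4 and Rragc had ACGTG in such a window. GCGTG occurred in 6 of the 10 members (Ddit4, Depdc5, Eif2ak4, Nprl2, Sesn1 and Tfeb) and in 7 of the 14 windows of all members. This set holds genes with and without a higher value in IV 5% O2. At Sesn1 and Tfeb the windows with GCGTG precede starts well inside the gene as the table has it.

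**Figure D1:**
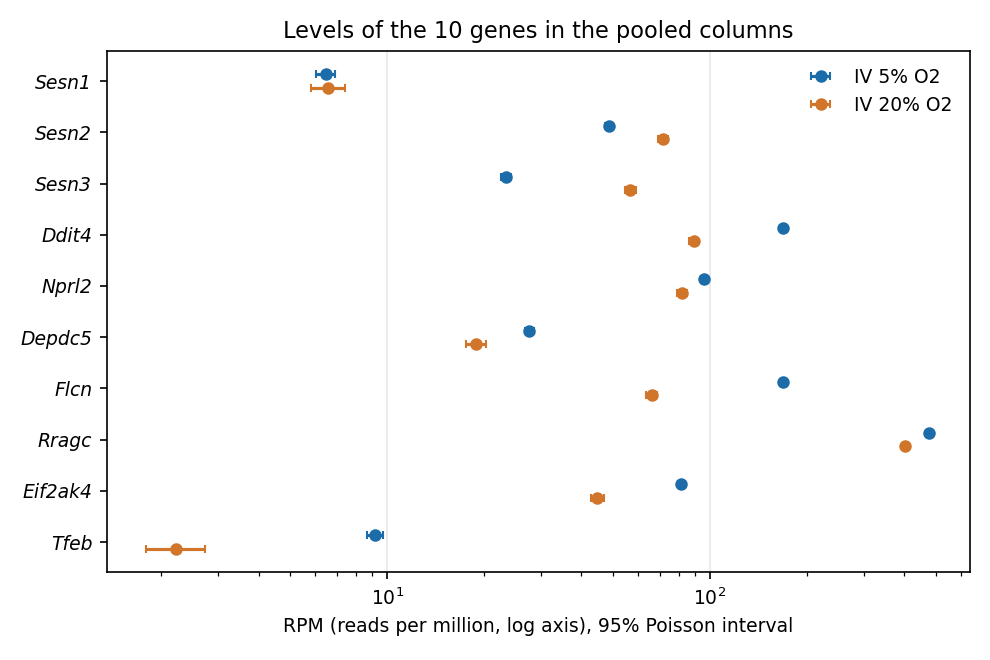
RPM of the 10 genes (log axis) in the pooled IV 5% O2 column (blue) and IV 20% O2 column (orange), with 95% Poisson intervals that cover counting error only. Tfeb shows the widest separation, 9.19 against 2.23 RPM, Sesn2 and Sesn3 lie to the left in IV 5% O2, and the 2 points of Sesn1 overlap.

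Of the members that act on the Rag GTPases, Flcn differed most. Flcn encodes folliculin, a GTPase-activating protein for RagC and RagD that is mutated in Birt-Hogg-Dubé syndrome, and lies on chromosome 11 from 59791408 to 59810016 on the minus strand. It had 168 RPM at 5% O2 (22195 reads) against 65.9 RPM at 20% O2 (2694 reads). The log2 difference was 1.34 (interval 1.29 to 1.41), or 2.55-fold higher in IV 5% O2, at percentile 89.6 of all genes tested. Under the 7 alternatives for scale, pseudocount, length and repeated rows it stayed between 1.05 and 1.35.

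Rragc, the gene of the GTPase RagC itself, had the highest level of the 10 genes and nearly the same value in both columns. It lies on chromosome 4 from 123917446 to 123936997 on the plus strand and had 478 RPM at 5% O2 (63229 reads) against 401 RPM at 20% O2 (16391 reads). The log2 difference, 0.25 with an interval of 0.23 to 0.28, was -0.0043 beside the median gene and turned to -0.04 with median-ratio scaling. The ratio of Rragc to Flcn per kilobase was 3.68 in IV 5% O2 and 7.87 in IV 20% O2. Rragc shares 264 exonic bases with 4930535I16Rik on the opposite strand. The libraries keep strand, and whether the counting used it is not given in the sources used here.

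Rragc was the only member with the letters CACGTG, the E-box core that Tfeb and its relatives (and also MYC and USF) bind, in the 250 bases before its start, against 8.16% of all such windows. The window is shown with these letters in capitals. CACGTG contains ACGTG on both strands. It is chr4:123917183-123917432 of GRCm38.p6 on the plus strand, from RefSeq, and the match begins 112 bases before the start.
Rragc: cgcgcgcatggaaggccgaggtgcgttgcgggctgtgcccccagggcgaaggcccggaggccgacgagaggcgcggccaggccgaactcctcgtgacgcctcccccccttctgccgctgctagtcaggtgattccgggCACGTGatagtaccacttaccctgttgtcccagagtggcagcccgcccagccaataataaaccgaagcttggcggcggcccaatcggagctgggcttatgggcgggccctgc

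The GATOR1 subunit genes were both higher in IV 5% O2 as deposited, but Nprl2 was at the level of the median gene. Nprl2, which together with Nprl3 forms the catalytic part of GATOR1, lies on chromosome 9 from 107542226 to 107545706 on the plus strand and had 95.8 RPM at 5% O2 (12662 reads) against 81.9 RPM at 20% O2 (3348 reads). The log2 difference, 0.22 with an interval of 0.17 to 0.28, was -0.03 beside the median gene; with median-ratio scaling the value was -0.06. Depdc5, whose product docks the complex on the Rag GTPases and which is a gene of focal epilepsy, lies on chromosome 5 from 32863701 to 32994236 on the plus strand. It had 27.6 RPM at 5% O2 (3643 reads) against 18.8 RPM at 20% O2 (769 reads), a log2 difference of 0.53 (interval 0.44 to 0.66), or 1.46-fold. Although the subunits work in 1 complex, their transcripts were far from equal: per kilobase of exon, Nprl2 stood 20.3-fold above Depdc5 in IV 5% O2 and 25.5-fold above it in IV 20% O2. Nprl3, the remaining subunit gene, had 12.98 and 11.0 RPM, and Nprl2 stood 27.8-fold and 28.1-fold above it per kilobase, or 14.7-fold and 14.9-fold with the length of the longest coding transcript.

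Eif2ak4, the gene of the amino acid starvation kinase GCN2, was higher in IV 5% O2. It lies on chromosome 2 from 118388618 to 118475234 on the plus strand and had 81.3 RPM at 5% O2 (10745 reads) against 44.7 RPM at 20% O2 (1828 reads). The log2 difference of 0.85 (interval 0.79 to 0.93), or 1.82-fold, was 0.59 relative to the median gene and at percentile 76.2. Of the other eIF2α kinase genes, Eif2ak1, the heme-regulated kinase, had 135 and 110 RPM, and Eif2ak3, the kinase PERK of the endoplasmic reticulum, had 30.8 and 33.5 RPM. Eif2ak2, the kinase PKR that responds to double-stranded RNA, did not pass the filter, with 1.40 RPM (185 reads) at 5% O2 and 0.269 RPM (11 reads) at 20% O2, a 5.201-fold ratio with a log2 interval of 1.51 to 3.41.

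Tfeb had the largest difference of the 10 genes on log2(RPM + 1) and the lowest level in IV 20% O2. It lies on chromosome 17 from 47737030 to 47792419 on the plus strand and had 9.19 RPM at 5% O2 (1215 reads) against 2.23 RPM at 20% O2 (91 reads). The ratio was 4.13-fold, with a log2 interval of 1.74 to 2.37 that is the widest of the 10 genes. On log2(RPM + 1) the difference was 1.66, at percentile 94.5 of all genes tested. For a gene of this level the pseudocount weighs heavily: the difference was 2.00 with 0.1 RPM, 0.97 with 5 RPM and 0.91 after division by exonic length, which puts it just under 2-fold and below Flcn in the latter 2 settings. The relatives Tfe3 and Mitf had more reads and smaller differences. Tfe3 had 92.5 RPM at 5% O2 against 87.2 RPM at 20% O2, and Mitf had 23.2 and 19.7 RPM, so per kilobase of exon both stood above Tfeb in each column.

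**Figure D2:**
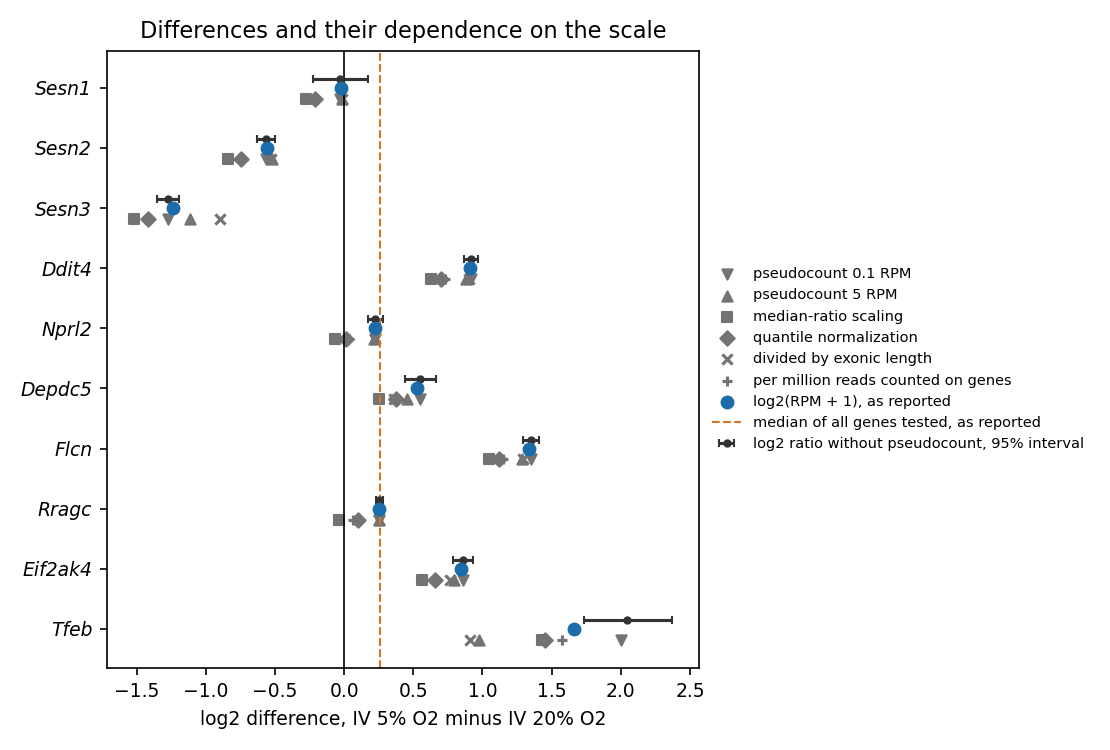
Log2 difference of each gene, IV 5% O2 minus IV 20% O2, on log2(RPM + 1) (blue), the log2 ratio without a pseudocount with its exact 95% counting interval (black), and the difference under 6 alternatives (grey symbols). The dashed line is the median of all genes tested, 0.26; Sesn2 and Sesn3 stay to the left of 0, Ddit4, Depdc5, Flcn, Eif2ak4 and Tfeb to the right, and Nprl2 and Rragc cross 0 with median-ratio scaling.

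Counted together, 2 of the 10 genes (Flcn and Tfeb) were at least 2-fold higher in IV 5% O2, where 18.7% of all genes tested were, and 1 (Sesn3) was at least 2-fold lower, where 9.22% of all genes were. These counts are near the background. Of all genes 2-fold apart, 67.0% were higher in IV 5% O2 as deposited and 48.9% with median-ratio scaling. Likewise, 7 of the 10 had a higher value in IV 5% O2, against 62.6% of all genes tested, and 5 of the 10 lay above the median gene. The counting interval left out equality for 9 of the 10, as it did for 88.9% of all genes. The median log2 difference of the members was 0.39, against 0.26 for all genes tested, and their range ran from -1.24 to 1.66. With the columns scaled by their median ratio, the 2 medians were 0.11 and -0.00049. As a group, then, the 10 genes were spread over the distribution of all genes, and what the columns show lies in the single members.

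**Figure D3:**
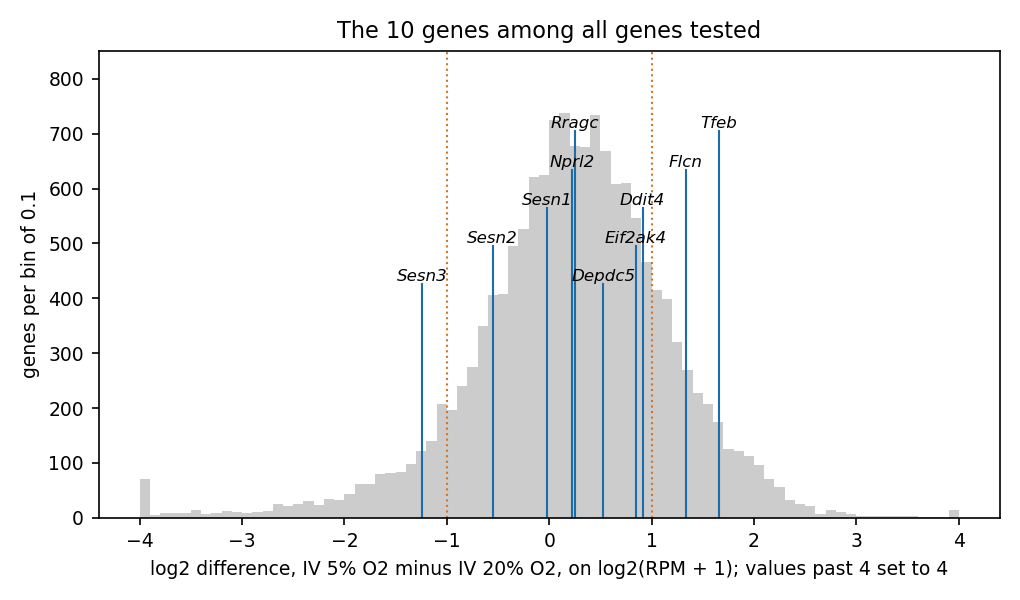
Histogram of the log2 differences of the 14704 genes tested, IV 5% O2 minus IV 20% O2 on log2(RPM + 1), with the 10 genes as blue lines (their heights only separate the names) and 2-fold limits dotted. The end bars hold all values past 4, Sesn3 lies beyond the lower limit, Flcn and Tfeb beyond the upper one, and the others lie inside.

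Per kilobase of exon, which allows levels of different genes to be compared, the order at the top was the same in both columns: Rragc, then Ddit4, then Nprl2. Rragc had 143 RPM per kb in IV 5% O2 and 120 in IV 20% O2, where the median gene tested had 4.73 and 4.20. Ddit4 had 96.0 and 50.8 RPM per kb, and Nprl2 had 47.6 and 40.7. Flcn and Sesn2 changed places: Flcn had 38.8 and 15.2 RPM per kb and Sesn2 had 14.0 and 20.6. Eif2ak4 was at rank 6 in both columns, with 10.9 and 6.00 RPM per kb.

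The lower end of the order differed more. In IV 20% O2 Sesn3 followed at 3.71 RPM per kb, Sesn1 at 1.65 and Depdc5 at 1.60 did not differ beyond their counting intervals, and Tfeb came last at 0.393. In IV 5% O2 Depdc5 had 2.34 RPM per kb, while Sesn1 at 1.62, Tfeb at 1.62 and Sesn3 at 1.53 had overlapping intervals, neighbour by neighbour. These levels rest on all annotated exons. With the length of the longest coding transcript in their place, Tfeb took rank 7 in IV 5% O2 and stayed last in IV 20% O2. Eif2ak4 and Sesn2 exchanged ranks in IV 5% O2, as did Nprl2 with Ddit4 and Sesn1 with Depdc5 in IV 20% O2.

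**Figure D4:**
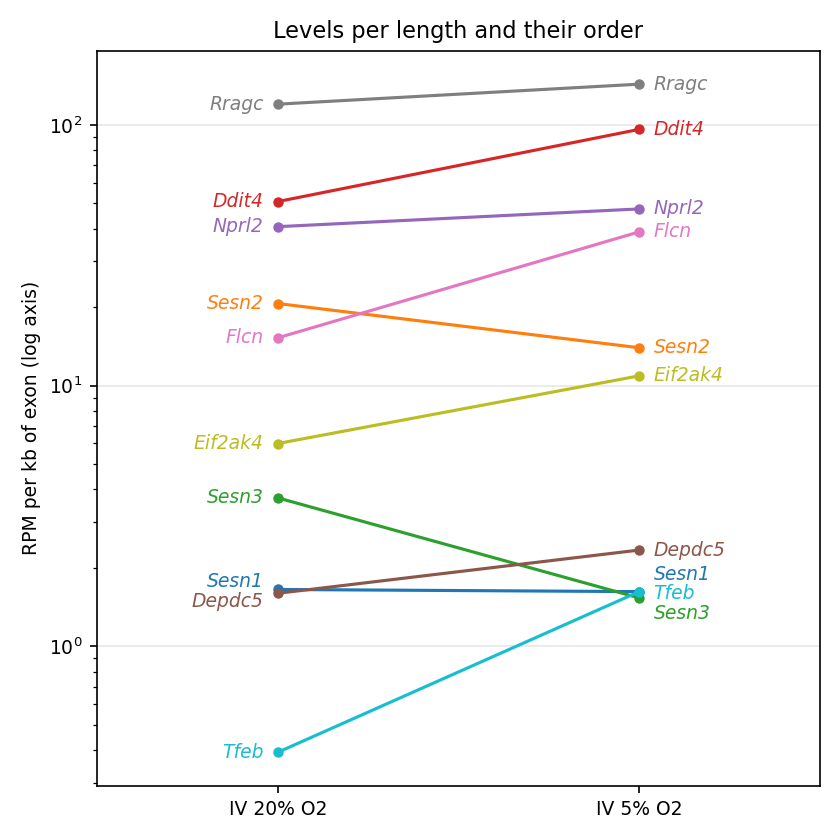
RPM per kilobase of exon (log axis) of each gene in IV 20% O2 (left) and IV 5% O2 (right), joined by a line. The lines of Flcn and Sesn2 cross, Sesn3 descends to the level of Sesn1, and Tfeb goes up from 0.393 to 1.62 RPM per kb.

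Around the members, 12 lists hold 87 other genes of the same pathways, of which 82 passed the filter. Of these, 7 were at least 2-fold higher in IV 5% O2 and 12 at least 2-fold lower, 8.54% and 14.6% of the genes against 18.7% and 9.22% of all genes tested, and their median log2 difference was -0.04. With each of the 3 scalings 4 were higher, and 16, 13 and 14 were lower with median-ratio scaling, quantile normalization and scaling to the reads counted on genes. The background with median-ratio scaling was 12.5% higher and 13.1% lower, beside 4.88% and 19.5% of the list genes. These shares of all genes are also the background for the count of each list below. Upstream of the Rag GTPases, the 5 GATOR2 genes had a median of 0.38 with 1 past 2-fold. This was Wdr24, a subunit gene, with 53.5 RPM at 5% O2 against 23.9 RPM at 20% O2 (log2 difference 1.13), which no longer passed 2-fold with any of the 3 scalings. Among the 5 other GATOR1 and KICSTOR genes, KICSTOR being the scaffold that tethers GATOR1 to the lysosome, 1 was at least 2-fold lower. That was Itfg2, a KICSTOR subunit gene, with 1.38 RPM in the first and 5.97 RPM in the second column (-1.55).

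Of the 6 genes of other amino acid sensors, 2 were at least 2-fold higher and 1 lower. Castor1, the arginine sensor, had 17.2 RPM at 5% O2 against 4.11 RPM at 20% O2, a log2 difference of 1.83. Sar1b, which has been described as a further leucine sensor, had 107 and 49.7 RPM (1.09), whereas Castor2, a paralogue of Castor1, had 28.2 and 57.7 RPM (-1.01). The 2 latter values lie close to 2-fold, and Sar1b was below it with each of the 3 scalings. With median-ratio scaling the list held 1 higher and 2 lower genes, since the lysosomal arginine sensor gene Slc38a9, with 24.3 and 43.2 RPM (-0.81), was at -1.09.

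The 7 other Rag GTPase and Ragulator genes tested, which encode the partners of RagC and its lysosomal anchor, were mostly lower in IV 5% O2, with a median of -0.57, 2 at least 2-fold lower and 1 higher. Rragb, the gene of RagB, had 1.82 RPM at 5% O2 against 11.0 RPM at 20% O2 (-2.09), and the Ragulator subunit genes differed in direction. Lamtor4 had 11.4 and 41.1 RPM (-1.76), and Lamtor3 had 166 and 81.9 RPM (1.01). At Lamtor3, 12.6% of the exonic windows of 50 bases and 2.35% of those of 100 bases recur in the genome, so reads from these stretches cannot be placed by sequence alone. With each of the 3 scalings Lamtor3 was less than 2-fold apart. Rragc, at the median gene, thus lay above most of its partner genes, of which 5 of the 7 were lower in IV 5% O2.

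Of Flcn's partners, Fnip1 had 101 RPM at 5% O2 against 81.3 RPM at 20% O2, and neither of the 2 genes was past 2-fold. Of the 6 genes of the TSC complex and Rheb, the branch on which Ddit4 acts, 1 was past 2-fold: Tsc2, whose product is the GTPase-activating protein for Rheb, had 23.1 and 48.6 RPM (-1.04). Tsc2 has 4.51% of its 100-base windows repeated elsewhere.

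Around and downstream of GCN2, genes differed in both directions. Of the 7 eIF2α kinase and partner genes tested, Ppp1r15a, which encodes the stress-induced subunit of the eIF2α phosphatase, had 111 RPM at 5% O2 against 34.6 RPM at 20% O2 (1.66), with 5.46% of its 100-base windows repeated elsewhere. Ppp1r15b, the constitutive counterpart, had 59.5 and 162 RPM (-1.43). Of the 12 genes of ATF4 and its known targets, the transcription programme that GCN2 activity feeds, 0 were at least 2-fold higher in IV 5% O2. At least 2-fold lower were 4, and the median was -0.50. Of all genes tested, 18.7% were higher and 9.22% lower by this measure. Chac1, a glutathione-degrading enzyme gene, had 20.1 RPM at 5% O2 against 70.6 RPM at 20% O2 (-1.76), Psat1 of serine synthesis had 44.7 and 132 RPM (-1.55), and the transcription factor gene Cebpb had 8.76 and 23.5 RPM (-1.33). With each of the 3 scalings, 5 of the 12 were at least 2-fold lower. Sesn2 and Ddit4 are themselves known targets of ATF4; the first was lower and the second higher in IV 5% O2.

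Of 16 lysosomal genes known as Tfeb targets, 1 was at least 2-fold higher in IV 5% O2 and 2 were lower, with a median of -0.32. Uvrag, an autophagy gene, had 253 RPM at 5% O2 against 96.2 RPM at 20% O2 (1.38). Only 6 of the 16 were higher in IV 5% O2 by any amount, against 62.6% of all genes tested, whereas Tfeb itself was higher. The 7 genes of AMPK, the energy-sensing kinase, and of its activator LKB1 held none past 2-fold. Higher in IV 5% O2 by any amount were 5 of the 7, near the 62.6% of all genes tested. Their median was 0.69, or 0.41 with median-ratio scaling. The regulatory subunit gene Prkab1 had 156 and 95.9 RPM. Prkaa2, of a catalytic subunit, had 49.8 and 58.7 RPM (-0.23), and Prkab2 had 6.31 and 11.8 RPM (-0.80), which became -1.06 with median-ratio scaling. Of the 7 transcription factor genes known to induce sestrins or Ddit4, Foxo4 was the only one past 2-fold, with 8.60 and 2.74 RPM (1.36), while Hif1a had 344 and 386 RPM.

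**Figure D5:**
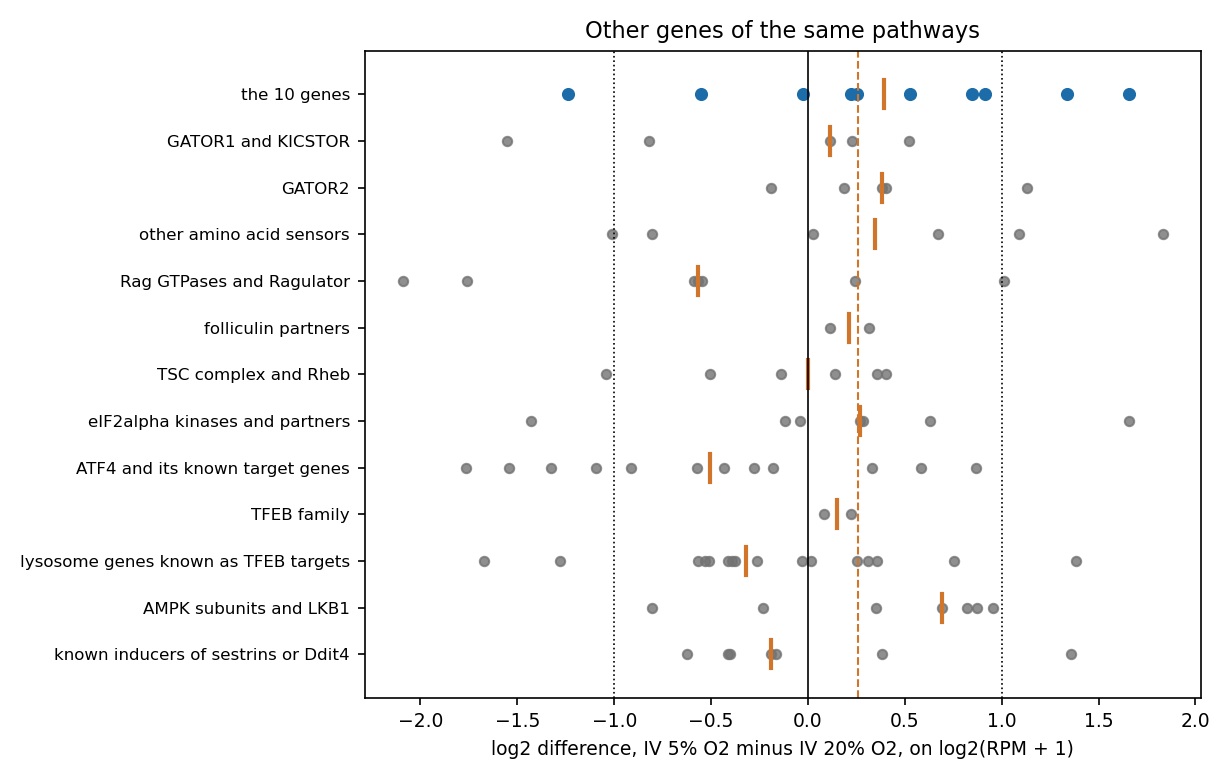
Log2 difference, IV 5% O2 minus IV 20% O2 on log2(RPM + 1), of the 10 genes (blue, top) and of the tested genes of 12 lists of the same pathways (grey), with the median of each row as an orange bar, 2-fold limits dotted and the median of all genes tested dashed. The ATF4 and the Rag and Ragulator rows lie mostly to the left of 0, and the AMPK row mostly to the right.

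Some features of the members were not used in their choice. Within 300 bases upstream of the start, 4 of the 10 have the start of a gene on the opposite strand, against 12.0% of the 13882 protein-coding genes of the table. These neighbours did not take the values of the members. Cep57l1 starts 64 bases from Sesn1 and had 101 RPM at 5% O2 against 33.0 RPM at 20% O2, a log2 difference of 1.58 beside -0.02 for Sesn1. Cyb561d2, 33 bases from Nprl2, had 14.1 and 24.7 RPM (-0.76, beside 0.22). Gm16062, 64 bases from Flcn, had 34.8 and 41.4 RPM (-0.24, beside 1.34), and Gm12905, 177 bases from Rragc, had 2.56 and 4.60 RPM (-0.65, beside 0.25). As deposited, the member and its neighbour lay on opposite sides of 0 in each of the 4 pairs, with Sesn1 at 0 within error and with Nprl2 and Rragc turning below 0, to the side of their neighbours, with median-ratio scaling.

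The 14 RefSeq promoters of the 10 genes had a median GC content of 65.2% in the 250 bases before the start, against 58.8% for all 15112, and none held the TATA box letters TATAAA, which 7.34% of all promoters did. None held TGATGNAAN, the C/EBP-ATF element that ATF4 binds (2.23% of all), TCACGTGA of the lysosomal gene network (1.34%, within CACGTG) or the FOXO letters GTAAACA (2.18%). The antioxidant element TGACNNNGC occurred at Sesn2 only, as TGACAGAGC from 36 to 28 bases before the RefSeq start, against 11.4% of all promoters. That start lies 45 bases inside the gene as the table has it, so the match lies within the annotated gene. Both strands were searched, and a match describes letters only. Nearly all exonic sequence of the members is unique in the genome: 1 of 1425 windows of 100 bases at Sesn3 and 0 at the other members occurred more than once.

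Those markers of somatic ovarian cells that the table holds were low in both columns beside those of the oocyte. Theca and stromal markers were mostly higher in IV 5% O2. Of 18 theca and stromal markers, 11 were in the table and 8 tested, 6 of them at least 2-fold higher in IV 5% O2, and the 11 summed to 52.0 RPM in IV 5% O2 (single genes from 0.431 to 16.4) and 17.5 RPM in IV 20% O2 (0 to 12.0). Cyp11a1 had 16.4 RPM against 0.122 RPM, Ptch1 had 6.69 against 12.0 RPM and Fn1 had 4.94 against 2.30 RPM, while Vim, Dcn and Col1a2 were without a read at 20% O2. Of 12 granulosa markers, 6 were in the table. They summed to 41.3 RPM in IV 5% O2 (0 to 18.7) and 29.8 RPM in IV 20% O2 (0 to 17.6). The highest were Nr5a2 with 18.7 and 17.6 RPM, Kitl with 10.2 and 5.58 RPM and Cyp19a1 with 9.12 and 5.70 RPM. Fshr had no reads in IV 5% O2 and Inha none in IV 20% O2. Of 10 macrophage markers, 4 were in the table and summed to 24.9 and 22.6 RPM (1.39 to 9.28 and 0 to 15.0). Among them, Csf1r had 9.28 and 15.0 RPM, Cd68 had 7.18 and 6.14 RPM and C1qb had 7.07 and 1.44 RPM. In IV 5% O2, Rragc, Ddit4, Flcn, Nprl2 and Eif2ak4 lay above each of these sums, and Sesn2 and Depdc5 lay between them. Tfeb, at 9.19 RPM, Sesn1 and Sesn3 lay below each. A sum of markers sets no limit on the RNA of another gene in such cells. The part of such cells in the differences of the members was not tested, and in bulk RNA a change in the number of cells of a type cannot be told apart from a change in RNA per cell.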

How the data were processed

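RNA-seq of class IV oocytes was used; RRBS and PBAT libraries were not analysed here. The authors trimmed the reads (the submitters' processing notes name Trim Galore), aligned them to mm10 with TopHat (TopHat2 2.0.9 in those notes), merged reads over exons in SeqMonk with an oocyte annotation and deposited log2 values, 1 column per condition. How libraries were combined is not given in the sources used here. The study's methods describe a correction for length, but 99.98% of the linear values in each column were whole multiples of 1 read (within 0.1 read), so the log2 values were read as RPM, and genes listed at 0.9 of 1 read were set to 0. The step gave the depth, 132200000 and 40880000 reads. A further value column belongs to none of the samples (1 column) and was not used.

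From these, differences on log2(RPM + 1) were taken where the mean of both columns reached 1 RPM. As pooled columns give no spread, the planned limma test was not run; genes 2-fold apart were counted, with Clopper-Pearson intervals for ratios and Poisson intervals for levels, both at 95%. Mates of a pair may have been counted separately, which would make the intervals too narrow. Exonic lengths came from GENCODE M21 (16068 of 16591 rows at exactly annotated coordinates, all members included). Windows of 50 and 100 bases, every 10 bases, were matched against 22 sequences of GRCm38.p6. Members and lists were chosen with earlier results of these data known. Named were all members, up to 3 genes past 2-fold of each list (or the one with most RPM per kb) and the 3 highest markers of each type; other genes were named for comparison with a member after their values were seen. The 2 lysosomal genes at least 2-fold lower are not reported here by name. Scripts were tested on simulated data. Computation ran in Python 3.11.15 (scipy 1.17.1, pandas 2.3.3, numpy 2.4.6, matplotlib 3.10.9, numba 0.67.0). Alternatives were pseudocounts of 0.1 and 5 RPM, median-ratio scaling, quantile normalization, division by exonic length, summed rows, no filter and a mean of at least 5 RPM; scaling to reads counted on genes and the longest coding transcript were added after the data were seen.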

Additional observations from a re-analysis of the deposited data

How the results depend on the processing

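No paired analysis was possible because each condition has 1 column, taken from its name to join both libraries. The planned limma fit, the replicate block and leaving out each library were therefore not run. With median-ratio scaling, Nprl2 turned to -0.063 and Rragc to -0.035, and the median of all genes tested to -0.00049, since 1 factor per column shifts every gene; the direction of the other 8 members held under each of the 7 alternatives run. The median of all genes was 0.059 with quantile normalization and 0.0917 with scaling to the reads counted on genes, and that of the members was 0.11, 0.24 and 0.21 with these 3 scalings, against 0.39. Among genes 2-fold apart, 67.0% were higher in IV 5% O2 as deposited and, with the same scalings, 48.9%, 49.6% and 55.7%. All genes at least 2-fold higher numbered 1202 with a pseudocount of 5 RPM, 1799 with quantile normalization, 1576 after division by exonic length and 1691 at a mean of at least 5 RPM, in place of 2753. Lower genes numbered 706 with a pseudocount of 5 RPM and 830 after division by length, in place of 1356. The stricter filter and the division by length test fewer genes (10755 and 11832 in place of 14704). Of the members, 1 in place of 2 was at least 2-fold higher with a pseudocount of 5 RPM and after division by exonic length (Flcn stayed, Tfeb did not), and after division 0 in place of 1 was lower (Sesn3, at -0.89). By level, 4 members in IV 5% O2 and 6 in IV 20% O2 kept their rank without division by length, and the same numbers with the longest coding transcript. Of the 70 values of single members under alternatives, 30 differed from the value as deposited by more than the longer arm of the counting interval of the ratio but kept their direction. Tfeb rests on 91 reads in the shallower IV 20% O2 column, which limits the precision of its ratio.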
